A study of Mus musculus with 8 samples.

Results

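Of the genes of the unfolded protein response and the early secretory pathway, 34 were followed in sorted mouse osteoblasts, chosen by name from a fixed list and found by symbol among the 21154 genes of the count table. All 34 passed the filter on low counts that left 16547 genes for testing. The list was split into 5 arms by role: 15 chaperones and folding enzymes, 5 stress sensors and transcription factors, 4 genes of endoplasmic reticulum (ER) associated degradation, 6 genes of the translocon and signal peptide removal, and 4 genes of COPII coats and of retrieval to the ER. The libraries came from female Col2.3-GFP mice, which were 8 to 10 weeks old when treated and all of which carried green fluorescent protein under a piece of the promoter of Col1a1. The PBS group (n = 3) had 4 intravenous injections of phosphate-buffered saline, with a week between injections. The DOX group (n = 5) was titled as having had 4 of doxorubicin, a DNA-damaging anthracycline. The treatment tags give 5 mg/kg for DOX replicates 2 to 5, while the tag of DOX replicate 1 says PBS and gives no dose. Cells were taken 8 weeks after treatment from digested bone freed of marrow and sorted on GFP, so the sort itself depended on the activity of a collagen promoter.

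A secretory cell pushes its cargo through the translocon into the ER, where chaperones and disulfide isomerases fold it, and sends it on in COPII-coated vesicles. When unfolded protein builds up, sensors in the ER membrane raise the output of chaperone, degradation and transport genes. Osteoblasts export large amounts of procollagen, and the collagen chains need both the folding enzymes and an enlarged COPII coat.

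Library totals ran from 39419027 to 44299591 counts. The labels name 2 batches, with 3 libraries in batch 1 (the first PBS replicate and the first 2 of DOX) and 5 in batch 2. The library titled DOX replicate 1 carries a treatment tag that says PBS. It was kept in the DOX group by its title, and results that rest on it are also given without it. PBS replicate 1 and DOX replicate 1 stood apart from the rest. Col1a1 and Col1a2, the genes of the type I collagen chains, took 19.1% and 23.2% of counts there and at most 39.5% in the other 6 libraries, of which the lowest was DOX replicate 4 at 26.03%. All 10 osteoblast markers on a fixed list were detected in each library. Of the erythroid markers, the summed level was 157 CPM in PBS replicate 1, 109 CPM in DOX replicate 1 and 39.4 CPM in DOX replicate 2, the 3 libraries of batch 1, and 3.07 to 11.0 CPM in batch 2, where CPM is the read count scaled to library size with TMM factors. Endothelial markers also summed higher in batch 1, at 17.0, 3.80 and 13.0 CPM against 0.903 to 1.57 CPM in batch 2. B and plasma cell markers, from cells that also use this pathway heavily, summed to 831 CPM in PBS replicate 3 and to 27.8 to 88.1 CPM elsewhere (9 of 10 genes in the table, with up to 3 at 0 in a library). In PBS replicate 3 the immunoglobulin genes Ighm and Igkc and the joining chain gene Jchain stood at 394, 294 and 112 CPM, while Mzb1, an ER protein of plasma cells, was at 0.142 CPM. Sdc1, of the same list, went the other way. It was lowest in PBS replicate 3, at 18.3 CPM, and made up 80.7 CPM of the sum of 88.1 CPM in PBS replicate 1. The part of these cells in the values below was not tested.

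No member differed between the groups by the quasi-likelihood test of edgeR with batch and group as terms. This test called 0 of 34 members, all with an adjusted p of 0.998 or above, and 0% of all genes tested. At an unadjusted p under 0.05 it listed 0 members, against 3.65% of all genes (2.02% higher and 1.63% lower in DOX). It listed 8 members without DOX replicate 2, where 1639 of 16364 genes were listed. DESeq2 and limma-voom also called 0 members, with 1 and 5 at an unadjusted p under 0.05, where DESeq2 called 26 of 21154 genes and listed 902, and limma-voom called 0 of 16547 and listed 1591. The log2 fold changes of the members ran from -0.33 to 0.38, with a median of -0.03 against 0.02 for all genes tested, and their standard errors from 0.11 to 0.24. In no member did the 3 PBS and 5 DOX libraries separate, against 2.42% of all genes (1.29% higher and 1.12% lower in DOX). Without DOX replicate 1 that number was also 0 members, against 4.16% (2.12% higher and 2.05% lower).

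**Figure D1:**
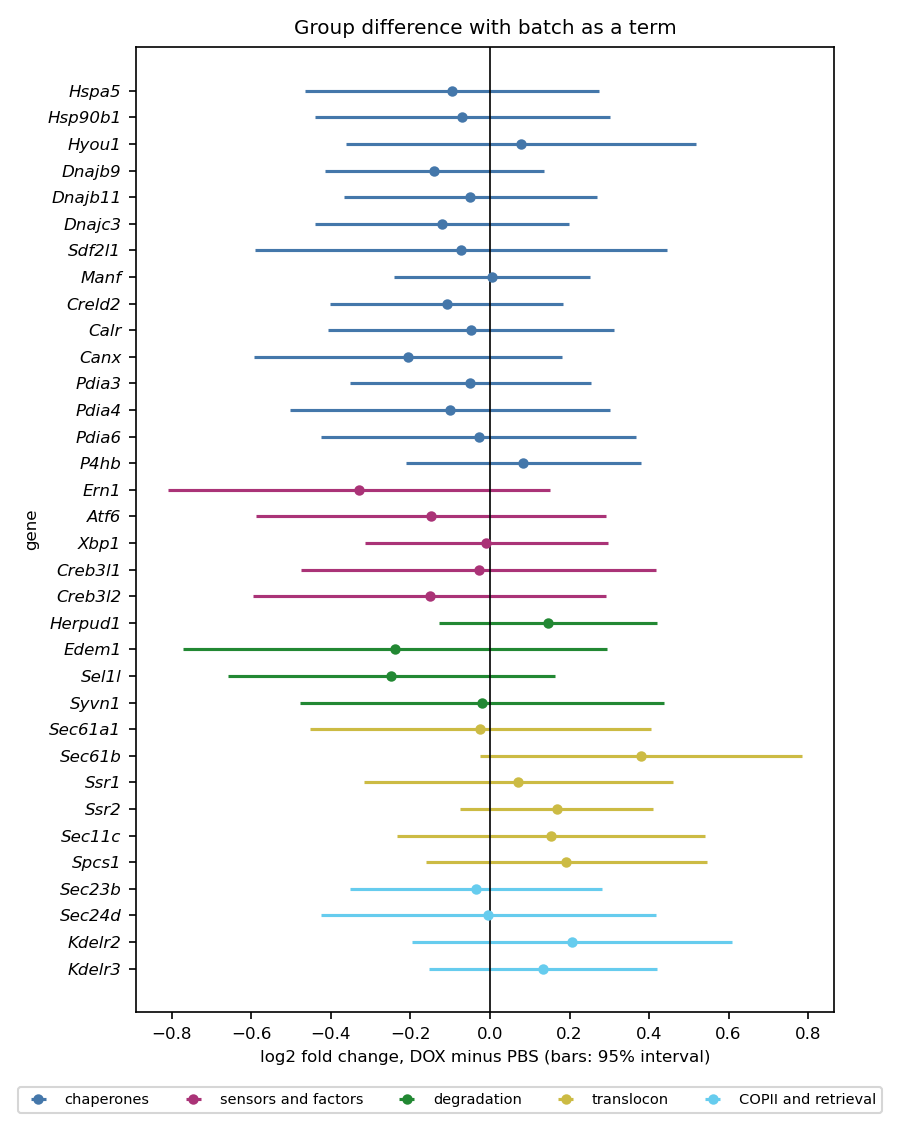
Log2 fold change of DOX minus PBS (x axis) for the 34 member genes (y axis), coloured by arm, with bars for the 95% interval. All 34 intervals include 0, and Sec61b, at 0.38, comes closest to excluding it.

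Of the libraries left out in turn, DOX replicate 1 shifted the balance of directions most. Over all libraries 11 members had a log2 fold change above 0 and 23 below, where 53.2% of all genes were above 0. Without DOX replicate 1 the numbers were 25 above and a median of 0.02, and with that library counted as PBS they were 26 above and a median of 0.09. Leaving out any other library gave 10 to 17 above, with a median between -0.12 and -0.0006. DOX replicate 1 was the lowest of the 8 libraries for 18 of the 34 members, against 18.7% of all genes tested. It was the highest for 3 members (22.2% of all genes), the small-protein genes Sec61b, Sec11c and Spcs1 of the translocon arm. PBS replicate 1 was the lowest for 7 members, against 19.7% of all genes.

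**Figure D2:**
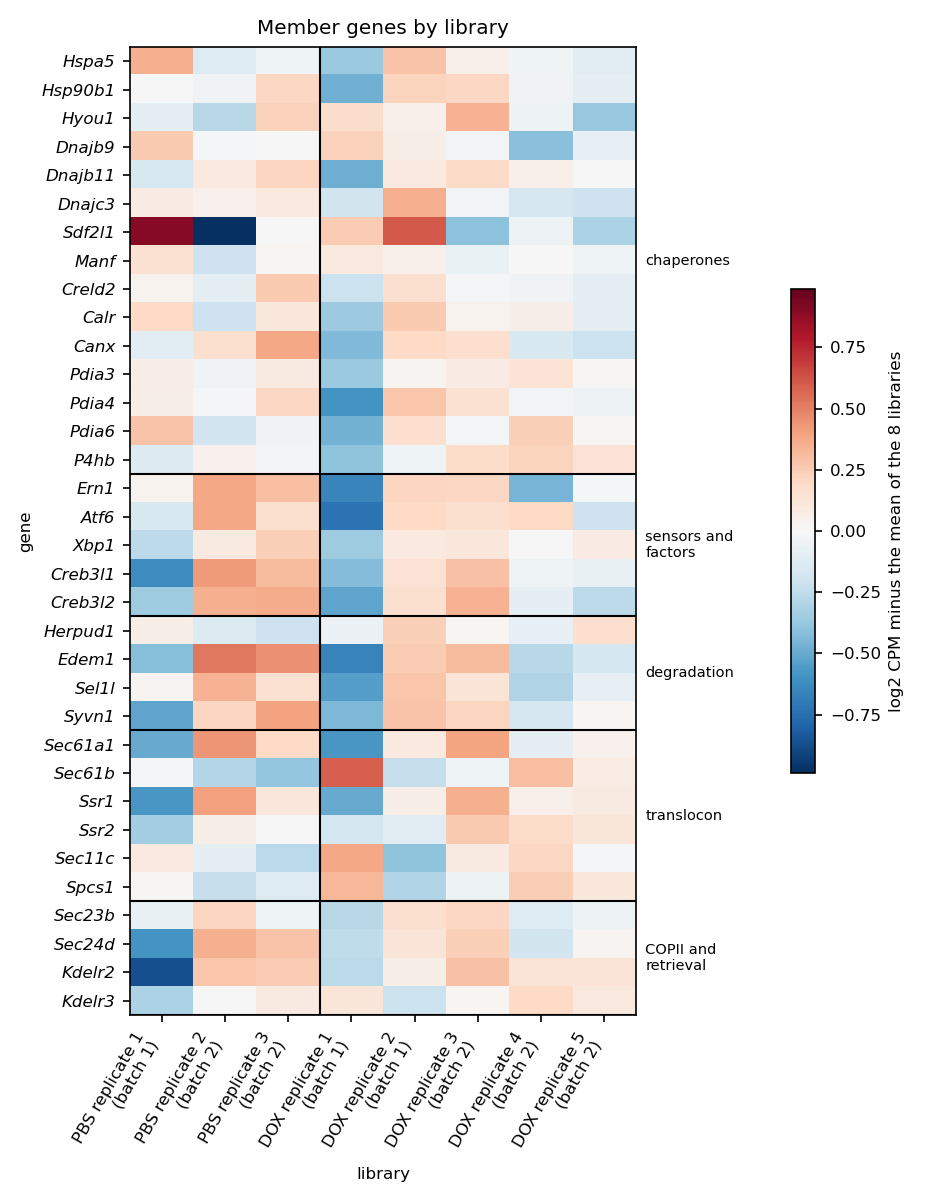
Log2 CPM of each member gene (rows, by arm) in each library (columns, with batch), as the difference from that gene's mean over the 8 libraries. The DOX replicate 1 column is low for 18 members and the PBS replicate 1 column for 7, and neither group forms a block of one colour.

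Of the 15 chaperones and folding enzymes, 3 had a log2 fold change above 0 and 12 below, none past the test, with a median of -0.07 and a range of -0.21 to 0.08. Without DOX replicate 1 the median of this arm was 0.02, and without PBS replicate 1 it was also above 0. With 1 library left out at a time it ran from -0.14 to 0.02, so its sign depended on the libraries used. P4hb encodes protein disulfide isomerase, which also serves as the beta subunit of the enzyme that hydroxylates prolines in collagen. It stood at 1358, 1536 and 1461 CPM in PBS and at 1132, 1448, 1692, 1739 and 1641 CPM in DOX replicates 1 to 5. The 3 DOX libraries of batch 2 lay above every PBS library and DOX replicate 1 lay below all of them, and the log2 fold change was 0.08 ± 0.13 (SE). Canx encodes calnexin, a membrane lectin that holds newly made glycoproteins. It stood at 299, 360.5 and 422 CPM in PBS and at 239, 371, 362, 291 and 278 CPM in DOX. With 3 of 5 DOX libraries below every PBS library, the log2 fold change was -0.21 ± 0.17 (SE), with a 95% interval of -0.59 to 0.18.

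Hspa5, which was named for its role and after its values were seen, encodes BiP, the ER chaperone that binds both unfolded protein and the stress sensors. It stood at 1326, 949.8 and 1007 CPM in PBS and at 806, 1266, 1075, 1009 and 966 CPM in DOX. The highest and the lowest library were PBS replicate 1 and DOX replicate 1, both of batch 1, and the log2 fold change was -0.10 ± 0.17 (SE), with a 95% interval of -0.47 to 0.27. The Hspa5 value was 0.02 without DOX replicate 1 and 0.12 with that library counted as PBS. Sdf2l1, a partner of BiP and a target of the stress response, had the largest SD among PBS libraries in relation to its mean of the 34 members, at 28.3, 7.61 and 15.2 CPM in PBS and between 11.4 and 23.1 CPM in DOX. It was chosen after its values were seen, and its log2 fold change was -0.07 ± 0.23 (SE). The other chaperone values lay between -0.14 and 0.08. They covered the ER heat shock proteins Hsp90b1 and Hyou1, the J-domain partners of BiP (Dnajb9, Dnajb11 and Dnajc3), the calcium-binding lectin chaperone Calr, the isomerases Pdia3, Pdia4 and Pdia6, and Manf and Creld2, which are secreted or retained proteins induced by ER stress.

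Some promoters of this arm carry a sequence that the stress response is known to read. The ER stress response element (ERSE) is a CCAAT box and a CCACG box held 9 bases apart, with letters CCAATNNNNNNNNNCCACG. It was searched on both strands in the RefSeq promoter windows of build GRCm38.p6, which span 250 bases before to 50 after each gene's start, and 26 of the 34 members had a window. An ERSE lay in 8 of those 26 genes, 7 of them chaperones and 1 of the degradation arm, against 0.119% of all 32851 windows. The 9 matches are shown in the direction of the motif, with the CCAAT and CCACG boxes in capitals, so that the fixed boxes can be told from the spacer.

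Hspa5: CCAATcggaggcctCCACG
Hsp90b1, first match: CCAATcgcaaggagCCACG
Hsp90b1, second match: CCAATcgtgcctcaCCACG
Calr: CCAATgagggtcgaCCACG
Canx: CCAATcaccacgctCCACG
Pdia6: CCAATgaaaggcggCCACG
Dnajc3: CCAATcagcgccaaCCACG
Creld2: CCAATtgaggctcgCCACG
Syvn1: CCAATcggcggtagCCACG

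The related ERSE-II, which is ATTGG and CCACG with 1 base of any kind between them, lay in the windows of Herpud1 and Dnajb11 and in 0.0365% of all windows. No 2 matches of the 3 motifs searched overlapped in a member's window. A match is a run of letters and was not tested for binding. Only exact matches to the letters were counted. The 8 genes with an ERSE had a log2 fold change between -0.21 and -0.02, with a median of -0.08. The 18 with a window and no ERSE, which include Herpud1 and Dnajb11, had a median of -0.04. Without DOX replicate 1, Hspa5, Hsp90b1, Calr, Pdia6 and Syvn1 lay above 0, from 0.02 to 0.10. Canx, Dnajc3 and Creld2 stayed below 0. The window of Hspa5 is printed as the best known promoter of this response (chr2:34771840-34772139, GRCm38.p6, plus strand), with the ERSE in capitals, starting 65 bases before the gene's start.

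Hspa5: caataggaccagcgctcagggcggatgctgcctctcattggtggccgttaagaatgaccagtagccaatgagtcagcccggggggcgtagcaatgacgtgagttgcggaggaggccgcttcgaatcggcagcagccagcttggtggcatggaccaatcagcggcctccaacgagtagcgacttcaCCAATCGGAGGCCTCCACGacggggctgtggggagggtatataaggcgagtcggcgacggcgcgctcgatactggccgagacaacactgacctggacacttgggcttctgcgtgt

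Sensors and transcription factors all had log2 fold changes below 0, from -0.33 to -0.01, and 0 of 5 passed the test. Without DOX replicate 1, Xbp1 was at 0.035 and Creb3l1 at 0.002, while Ern1, Atf6 and Creb3l2 stayed below 0. Ern1 encodes IRE1-alpha, the membrane kinase and RNase that splices Xbp1 mRNA. It stood at 13.7, 17.5 and 16.5 CPM in PBS and at 8.55, 15.6, 15.5, 9.77 and 13.3 CPM in DOX. In DOX 3 of 5 libraries lay below every PBS library, and the log2 fold change was -0.33 ± 0.22 (SE), with a 95% interval of -0.81 to 0.15. The value was -0.43 within batch 2 and -0.25 within batch 1. Creb3l1 encodes OASIS, a membrane-bound factor cleaved under ER stress that is known in bone for driving Col1a1 and secretory genes. It stood at 388, 801 and 744 CPM in PBS and at 445, 659, 731, 582 and 568 CPM in DOX. The batch 1 library of PBS was the lowest of all 8 and the batch 2 libraries of PBS were the 2 highest, and the log2 fold change was -0.03 ± 0.20 (SE). Its paralogue Creb3l2, with a role in cartilage secretion, and the sensor Atf6 had values of -0.15 ± 0.20 and -0.15 ± 0.20. Xbp1, which encodes the factor made by the IRE1 splicing, had -0.01 ± 0.14, and gene counts do not separate its spliced from its unspliced mRNA.

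Degradation genes, whose products mark and export misfolded protein from the ER, had 1 log2 fold change above 0 and 3 below, and 0 of 4 passed. Herpud1 encodes a membrane protein that organises the degradation complex and is strongly induced by ER stress. It stood at 142, 123 and 118 CPM in PBS and at 130.4, 160.2, 138, 128 and 152 CPM in DOX, and 2 of 5 DOX values exceeded all those of PBS. Its log2 fold change was 0.15 ± 0.12 (SE). Sel1l, the adaptor of the ubiquitin ligase HRD1, stood at 99.7, 124 and 109 CPM in PBS and at 67.0, 118, 107, 79.4 and 92.7 CPM in DOX. With 3 of 5 DOX libraries below every PBS library, its value was -0.25 ± 0.19 (SE). Edem1, which trims mannose from misfolded glycoproteins, had -0.24 ± 0.24, and Syvn1, which encodes HRD1 itself, had -0.02 ± 0.21. The promoter window of Syvn1 is printed as the member outside the chaperones with an ERSE (chr19:6046326-6046625, GRCm38.p6, plus strand). The capitals mark the ERSE, which begins 44 bases before the start.

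Syvn1: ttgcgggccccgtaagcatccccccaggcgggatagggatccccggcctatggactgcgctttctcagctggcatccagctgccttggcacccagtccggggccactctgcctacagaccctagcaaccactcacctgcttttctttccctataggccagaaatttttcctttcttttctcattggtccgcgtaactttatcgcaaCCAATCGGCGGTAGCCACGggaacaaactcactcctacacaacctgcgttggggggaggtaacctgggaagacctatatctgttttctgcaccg

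The translocon arm held the member with the smallest p. Of 6 members 5 had a log2 fold change above 0, with a median of 0.16 and a range of -0.02 to 0.38, and none passed. Sec61b encodes the beta subunit of the channel through which new chains enter the ER. It stood at 212, 174 and 164 CPM in PBS and at 322, 182, 207, 263 and 225 CPM in DOX. In DOX 3 of 5 libraries lay above every PBS library and none below, with DOX replicate 1 the highest, and the log2 fold change was 0.38 ± 0.18 (SE; unadjusted p = 0.063 and adjusted p = 0.998 in edgeR). Its value was 0.25 without DOX replicate 1 and 0.11 with that library counted as PBS. Ssr1 encodes a subunit of the translocon-associated protein complex. It stood at 340.1, 673 and 549 CPM in PBS and at 359, 528, 649, 527 and 541 CPM in DOX, with the lowest 2 values in PBS replicate 1 and DOX replicate 1. Its log2 fold change was 0.07 ± 0.17 (SE). Ssr2, of the same complex, had 0.17 ± 0.11, and the signal peptidase genes Sec11c and Spcs1 had 0.15 ± 0.17 and 0.19 ± 0.16. Sec61a1, the pore-forming subunit, had -0.02 ± 0.19.

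COPII and retrieval genes had 2 log2 fold changes above 0 and 2 below, and 0 of 4 passed. Sec24d encodes a cargo-binding subunit of the COPII coat that procollagen export depends on. It stood at 269, 516 and 491 CPM in PBS and at 340.1, 441, 477, 356 and 412 CPM in DOX, so the DOX libraries lay within the span of the PBS libraries, and the log2 fold change was 0.00 ± 0.19 (SE). Kdelr2 encodes a receptor that returns escaped chaperones from the Golgi to the ER. It stood at 269.9, 598 and 588 CPM in PBS and at 410.1, 513, 603, 539 and 538 CPM in DOX. PBS replicate 1 was the lowest library and DOX replicate 1 the next, and the log2 fold change was 0.21 ± 0.18 (SE). Its paralogue Kdelr3 had 0.13 ± 0.13, and the coat gene Sec23b had -0.04 ± 0.14. A core of the unfolded protein response element, TGACGTGG, lay in the windows of Sec24d and Kdelr3 on either strand, against 0.676% of all windows. The window of Sec24d is printed for the relation to collagen described further on (chr3:123267246-123267545, GRCm38.p6, plus strand), with that core in capitals, 26 bases before the start.

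Sec24d: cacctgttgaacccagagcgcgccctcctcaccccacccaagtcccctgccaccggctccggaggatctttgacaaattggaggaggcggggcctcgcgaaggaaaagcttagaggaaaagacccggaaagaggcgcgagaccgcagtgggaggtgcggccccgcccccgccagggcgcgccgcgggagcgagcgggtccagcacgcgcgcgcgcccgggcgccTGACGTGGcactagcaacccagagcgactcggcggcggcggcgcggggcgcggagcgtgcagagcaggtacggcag

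**Figure D3:**
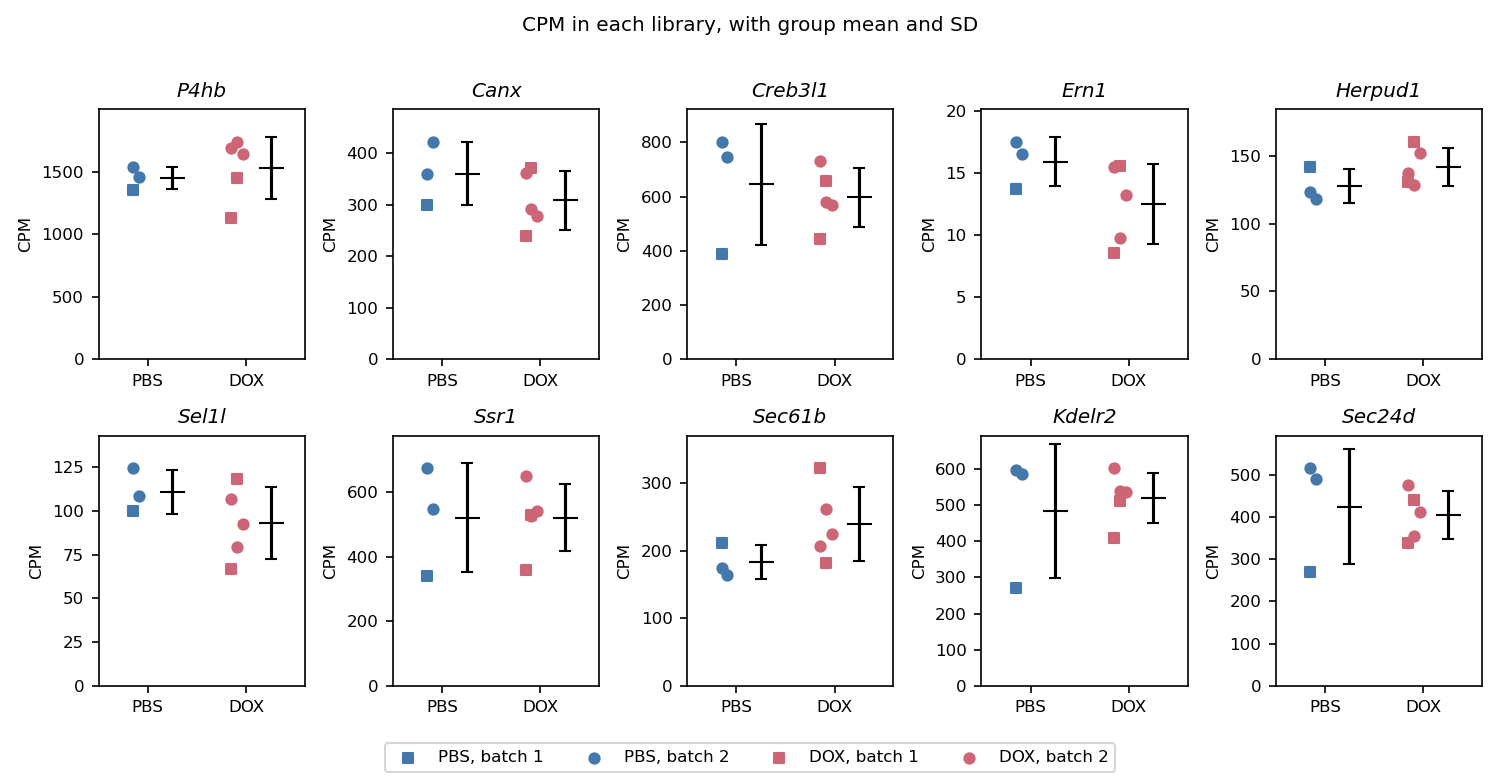
CPM (y axis, from 0) of 10 member genes in each PBS (blue) and DOX (red) library, squares for batch 1 and circles for batch 2, with the group mean and SD in black. For Creb3l1, Ssr1, Kdelr2 and Sec24d the batch 1 library of PBS is the lowest of the 8, and in all 10 genes the groups overlap.

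The group difference was then read within each batch, where batch 1 has 1 PBS library and 2 DOX libraries. Within batch 1 the difference in log2 CPM was above 0 for 17 members, with a median of 0.00, and within batch 2 for 13, with a median of -0.08, where 49.8% and 52.4% of all genes were above 0. The direction was opposite in the 2 batches for 20 of 34 members, against 56.5% of all genes. COPII and retrieval genes had a median of 0.39 within batch 1 and -0.08 within batch 2, and chaperones of -0.12 and -0.01. For Kdelr2 the differences were 0.76 (batch 1) and -0.08 (batch 2), for Sec24d 0.53 and -0.29, and for Creb3l1 0.48 and -0.31.

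The difference between batches was tested as the interaction of group and batch. EdgeR called 0 members and 0% of all genes, and listed 3 members at an unadjusted p under 0.05, against 11.4% of all genes, so the members were not above the background. These were Kdelr2 (-0.86 ± 0.25, unadjusted p = 0.00740 and adjusted p = 0.314), Sec24d (-0.82 ± 0.29, adjusted p = 0.357) and Creb3l1 (-0.81 ± 0.33, adjusted p = 0.406), as log2 values with SE. DESeq2 called Kdelr2 (adjusted p = 0.0367) and 269 of all genes. All 3 values rest on PBS replicate 1 as the only PBS library of batch 1, and no test was possible without it. Without DOX replicate 1, edgeR called 0 members and listed 14 at an unadjusted p under 0.05, where 3037 of 15926 genes were listed.

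**Figure D4:**
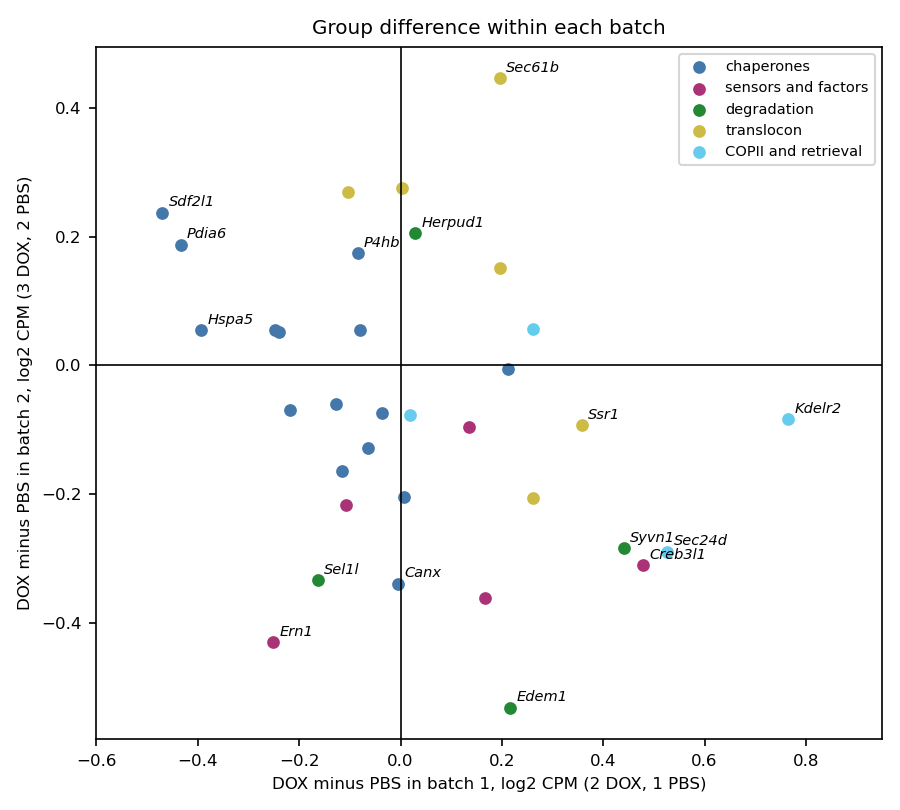
DOX minus PBS in log2 CPM within batch 1 (x axis) and within batch 2 (y axis), 1 point per member gene coloured by arm. Kdelr2, Sec24d, Creb3l1 and Syvn1 lie at the lower right, above 0 in batch 1 and below 0 in batch 2, and Sec61b lies above 0 in both.

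Between batches, irrespective of treatment, edgeR called 0 of 34 members, where 0.0907% of all genes passed (15 genes). At an unadjusted p under 0.05 it listed 8 members, against 14.6% of all genes, 6 higher and 2 lower in batch 2. The log2 value was above 0 for 22 members, against 48% of all genes. The batches did not overlap for 6 members, with Dnajb9, Sdf2l1 and Manf lower and P4hb, Ssr2 and Kdelr2 higher in batch 2, against 9.15% of all genes. Sdf2l1, lower in batch 2 by a log2 value of -0.92 ± 0.23 (SE), had the smallest adjusted p (0.174), and Ssr1 (0.53 ± 0.18), Kdelr2 (0.57 ± 0.18) and Ssr2 (0.34 ± 0.11) were among the higher. DESeq2 called Sdf2l1 and Ssr2, among 516 of 21154 genes. Without DOX replicate 2, edgeR called 6 members (Creb3l1, Edem1, Kdelr2, Sec61a1, Ssr1 and Syvn1) and 926 of all genes. Batch 1 then holds PBS replicate 1 and DOX replicate 1, and the cause was not tested. The erythroid and endothelial markers given above also differ between the batches, and their part was not tested.

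In CPM scaled with TMM factors, several members ran with the share of counts taken by collagen. This relation was examined after the data were seen and uses no group labels. The summed level of chondrocyte markers (7 of 8 in the table, none at 0) also moved with that share. It was 2922 and 1984 CPM in PBS and DOX replicate 1, 7144 and 7220 CPM in PBS replicates 2 and 3 and 3883 to 5806 CPM in the other 4 libraries. Col2a1 made up most of each sum, and Col9a1 was also lower in PBS replicate 1 than in PBS replicates 2 and 3. Within PBS the others, Comp, Chad, Acan, Col9a2 and Sox9, went the other way. Comp stood at 561, 209 and 107 CPM and Chad at 203, 62.0 and 21.8 CPM in PBS replicates 1 to 3. Sox9 lay between 7.83 and 17.6 CPM over all libraries. The part of these markers in the relation was not tested. Over the 8 libraries Sec24d had a Pearson r of 0.96 with the collagen share (exact permutation p = 0.000124, adjusted p = 0.0283 over 16545 genes) and a Spearman rho of 0.98 (exact permutation p = 0.000397, adjusted p = 0.0466). Creb3l1 had an r of 0.96 (exact permutation p = 0.000248, adjusted p = 0.0287) and a rho of 0.95 (exact permutation p = 0.00114, adjusted p = 0.0471). Both genes were lowest in PBS replicate 1, next in DOX replicate 1 and highest in PBS replicate 2, which is the order of the collagen share at its ends. Edem1 had an r of 0.95 (exact permutation p = 0.00149, adjusted p = 0.0448) and a rho of 0.95 (adjusted p = 0.0471). Syvn1 had an r of 0.95 (exact permutation p = 0.000446, adjusted p = 0.0334), and its rho of 0.86 did not pass (adjusted p = 0.106).

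The 4 genes were the members that passed by Pearson's r, of 34 relations examined, against 3.85% of all genes. At an unadjusted p under 0.05 there were 17 members, 14 positive and 3 negative, against 25.9% of all genes. Without the 2 libraries farthest from the median share, PBS replicates 1 and 2, r was 0.94 for Sec24d, 0.91 for Creb3l1, 0.97 for Edem1 and 0.97 for Syvn1. With the first replicate of each group left out, the values were 0.93, 0.92, 0.98 and 0.90. With 1 library left out, 6 members passed without PBS replicate 1 (Creb3l1, Edem1, Ern1, Sec24d, Sec61b and Sel1l, against 4.02% of all genes), 2 without DOX replicate 2 (Creb3l1 and Sec24d, against 0.798%) and 0 members and 0 genes without any one of the other 6 libraries. Fewer libraries allow fewer orders and so a higher smallest permutation p, so a count of 0 alone does not show that the relation was lost. The r of the 4 genes lay between 0.92 and 0.98 in these fits. Correlations were computed only over 6 or more libraries, so with 3 and 5 libraries no value is given within a batch, and the part of batch in the relation was not tested. With both collagen genes left out of the TMM scaling, which was still applied, the same 4 passed, with r of 0.96, 0.96, 0.95 and 0.95.

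Over the 8 libraries the values of r differed between arms, and some of these contrasts changed with the libraries used. All 5 sensors and factors had a positive r, from 0.70 to 0.96, with 0.84 for Xbp1, 0.91 for Creb3l2, 0.73 for Ern1 and 0.70 for Atf6. The 4 COPII and retrieval genes also had positive values, from 0.14 for Kdelr3 to the 0.96 of Sec24d, with 0.81 for Kdelr2 and 0.72 for Sec23b. Kdelr3 was at -0.56 without PBS replicates 1 and 2 and at -0.51 with the first replicate of each group left out, while the others stayed positive. Of the chaperones 10 of 15 were positive, and Hspa5 was at -0.07 and Calr at 0.07. Without PBS replicates 1 and 2 these became 0.69 and 0.76, and with the first replicate of each group left out they were 0.11 and -0.03. In the former set Manf, at -0.22, was the only negative chaperone. In the latter P4hb (-0.78) and Pdia6 (-0.67) were among the negative ones. Canx, the chaperone with the largest value over the 8 libraries, was at 0.83. The translocon arm was split: Sec61a1 (0.89) and Ssr1 (0.84) were positive, while Sec61b (-0.75), Sec11c (-0.72) and Spcs1 (-0.75) were negative. None of these others passed over all genes, and the differences between arms were not tested. Over all genes tested 47% were positive, with a median r of -0.06, and the members had a median of 0.49.

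**Figure D5:**
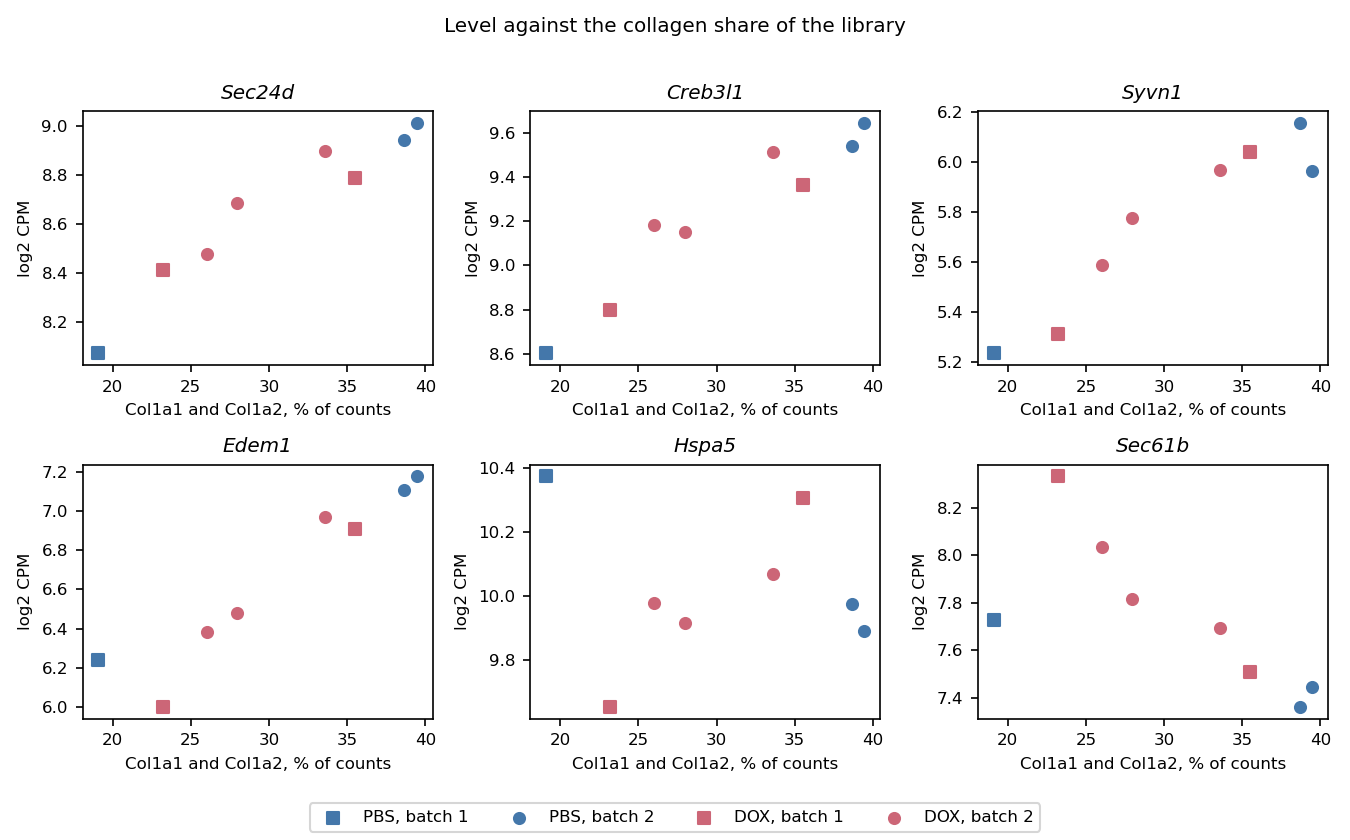
Log2 CPM (y axis) against the percentage of counts from Col1a1 and Col1a2 (x axis) in the 8 libraries, blue for PBS and red for DOX, squares for batch 1 and circles for batch 2. Over the 8 libraries Sec24d, Creb3l1, Syvn1 and Edem1 climb with the share, Sec61b declines with it (r = -0.75), and Hspa5 has an r of -0.07.

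Neighbouring genes of the pathway gave the same picture for treatment. Of 100 further genes in 6 lists, 99 were tested, with 49 log2 fold changes above 0 and 50 below and a median of -0.01, and edgeR called 0. At an unadjusted p under 0.05 there were 2. Atf3, a stress-induced factor downstream of PERK that also responds to many other stimuli, stood at 25.0, 13.4 and 9.03 CPM in PBS and at 72.1, 34.3, 15.4, 17.7 and 38.9 CPM in DOX. The PBS libraries all lay below 3 of the 5 DOX libraries, the log2 fold change was 1.09 ± 0.34 (SE; unadjusted p = 0.00924, adjusted p = 0.998 in edgeR), and it was 0.99 within batch 1 and 0.99 within batch 2. It was 0.90 without DOX replicate 1, its highest library, 0.55 with that library counted as PBS, and 0.77 to 1.25 with any 1 library left out. Cdnf, a paralogue of Manf, stood at 1.27, 1.37 and 1.53 CPM in PBS and at 0.400, 1.44, 0.445, 0.369 and 0.290 CPM in DOX, from at most 68 counts in a library. Its log2 fold change was -1.47 ± 0.58 (SE; adjusted p = 0.998 in edgeR), with 4 of 5 DOX libraries below every PBS library.

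Of the 9 genes of the PERK and ATF4 branch, which slows translation and turns on stress genes, 5 had a log2 fold change above 0 and 4 below, with a median of 0.08. Trib3, a pseudokinase gene induced by CHOP, had 1.11 ± 1.48 (SE), at a mean of only 0.644 CPM in PBS and 0.701 CPM in DOX. As log2 fold changes with SE, the factor gene Atf4 was at 0.08 ± 0.11, the kinase gene Eif2ak3 (PERK) at -0.07 ± 0.22, Ddit3 (CHOP) at -0.22 ± 0.23, Chac1 at 0.11 ± 0.19 and Ppp1r15a, which restores translation, at 0.17 ± 0.15. These 6 were chosen after their values were seen. The other lists had medians of -0.04 for further chaperones and oxidases (18 tested), -0.07 for genes that process the sensors (8), -0.01 for degradation (17), 0.01 for translocon and glycosylation (24) and 0.00 for COPII and cargo receptors (23). Over these 6 lists 70 of 99 genes were above 0 within batch 1 and 30 of 99 within batch 2, against 49.8% and 52.4% of all genes, and 11 had an unadjusted p under 0.05 for the interaction, against 11.4% of all genes.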

How the data were processed

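The authors deposited raw counts of reads per gene symbol for 8 libraries of polyA RNA, prepared by SMART-Seq v4 Plus, per the labels' protocols. STAR 2.7.9a, featureCounts 2.0.1, Trim Galore 0.6.6 and the build GRCm39 are named in the submitters' processing notes. Annotation, strand and multi-mapping settings: not given in the sources used here. No gene had fewer than 10 counts summed over all samples. Titles call the libraries biological replicates and do not name the animals.

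Counts were fitted in R 4.3.3 with edgeR 4.0.16 (quasi-likelihood test, TMM scaling, filterByExpr, batch and group as terms, both sides), p-values were adjusted over all genes by Benjamini-Hochberg, with a threshold of 0.05. DESeq2 1.42.0 and limma 3.58.1 were alternatives, beside other scalings, filters, terms and sets of libraries. Log2 CPM carried a prior count of 2, and intervals are at 95%. Fitting and the permutation code were tested on simulated data. Relations to the collagen share used all 40320 orders of the libraries (NumPy 2.4.6), two-sided. Promoters came from RefSeq windows of GRCm38.p6, not the build of the counts, and serve as sequence only.

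The members and gene lists were chosen with earlier results of these data known. Members described library by library were those with an unadjusted p under 0.05 for group or interaction and, in each arm, those with the highest mean level and the smallest p. Other pathway genes were named at an unadjusted p under 0.05. In bulk RNA, fewer cells of a type and less RNA per cell cannot be told apart. Reads of overlapping genes and of near-identical copies could not be separated.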

Additional observations from a re-analysis of the deposited data

Results flagged for a closer look

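In 3 of 40 groups checked, 1 DOX library lay far from the other 4, and chance alone gives about 1 in 20 such groups. Dnajc3, the co-chaperone that also inhibits PERK, stood at 292 CPM in DOX replicate 2 and between 197 and 223 CPM in the other DOX libraries. Pdia3, the isomerase that works with calnexin and calreticulin, stood at 703 CPM in DOX replicate 1 and between 918 and 997 CPM in the others. Xbp1 stood at 279.7 CPM in DOX replicate 1 and between 357 and 386 CPM in the others. The last 2 are low in the library whose title and treatment tag disagree.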

How the results depend on the processing

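The number of members called between DOX and PBS was 0 under all 20 alternatives, including each library left out in turn (0 to 0) and the replicate number as a block. The block gave a median of -0.04 over the members. Same-numbered libraries had deviations from their group mean correlated at 0.24, -0.04 and 0.23 for numbers 1 to 3. Libraries with unlike numbers ran from -0.29 to 0.15, the last for PBS replicate 2 with DOX replicate 3, so the 0.24 and 0.23 were the highest. Batch was left in these deviations, so they cannot decide whether equal numbers are pairs. The main fit did not take them as pairs. The median of the members moved to 0.0871 and that of the chaperones to 0.10 with DOX replicate 1 counted as PBS. Leaving out 1 library at a time moved the median of all members between -0.12 and 0.02. The members called between batches were 2 in DESeq2 and 0 to 6 with 1 library left out, and for the interaction 1 in DESeq2 (Kdelr2) and 0 to 0 with 1 library left out. The members related to the collagen share numbered 0 to 6 with 1 library left out. The r of the 4 members that passed over all 8 libraries was then 0.95 to 0.97 for Sec24d, 0.93 to 0.98 for Creb3l1, 0.93 to 0.98 for Edem1 and 0.92 to 0.98 for Syvn1. Creld2, Canx, Ern1, Herpud1, Edem1, Sel1l, Sec61b, Ssr2 and Spcs1 kept the sign of their log2 fold change under all 20 alternatives. Every other member changed sign in at least 1 of them, and all were uncalled. Hspa5, below 0 in the main fit, was above 0 in 5 alternatives, and Xbp1 in 6. With 1 library left out, the log2 fold change ran from -0.29 to 0.0850 for Creb3l1, -0.27 to 0.10 for Sec24d, -0.0837 to 0.21 for Ssr1 and -0.0710 to 0.30 for Kdelr2. DOX replicate 1 counted as PBS gave 0.0509 for Creb3l1 and 0.0173 for Sec24d. A collagen-share covariate gave 0.0853 for Creb3l1 and 0.11 for Sec24d. Sec24d was 0.00611 with collagen left out of the scaling and 0.00388 with a stricter filter. The block gave 0.0223 for Sec24d, -0.00893 for Ssr1 and -0.0455 for P4hb, and limma-voom gave -0.0694 for Ssr1. Batch 2 alone gave -0.0875 for Ssr1 and -0.0750 for Kdelr2. Leaving out the first replicate of both groups gave -0.0907 for Ssr1 and -0.0783 for Kdelr2. The causes were not tested.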
